A study of Mus musculus with 15 samples.

Results

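Lysosomal genes were followed in mouse liver as a set of 39: 10 cathepsins, 11 other luminal enzymes and activators, 7 membrane and lipid-transport proteins, 4 regulators and 7 subunits of the vacuolar ATPase. The members were a list of symbols matched to the rows of the deposited count table, and all 39 were found among its 57132 gene identifiers. All 39 also passed the low-count filter, which left 18181 genes for testing.

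Liver RNA came from male C57BL/6J mice, an inbred laboratory strain, that were 8 weeks old when the diets began. SR9009 mice (5 libraries) ate CDA-HFD, a high-fat diet that lacks choline and has a defined amino acid content, for 18 weeks. SR9009, a synthetic agonist of the REV-ERB nuclear receptors, was injected into the peritoneum at 100 mg/kg/day after 12 weeks of diet and until the end, 6 weeks in all. Vehicle mice (5 libraries) ate the same diet for the same time and received daily injections of the carrier, 15% Kolliphor in saline, over the same weeks. Chow mice (4 libraries) ate standard chow for 18 weeks. Whether Chow mice had injections is not given in the labels, so diet and injections cannot be told apart between Vehicle and Chow. Arms held 15, 15 and 10 mice, and the labels do not say how the sequenced livers were picked.

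Lysosomes are acidic organelles in which proteases, glycosidases and lipases break down material taken up by endocytosis, phagocytosis or autophagy. A proton pump, the vacuolar ATPase, keeps them acidic, and the breakdown products leave through transporters in the membrane. Transcription factors of the MiT/TFE family (TFEB, TFE3, MITF) bind an E-box element in many lysosomal promoters and are held in the cytoplasm by mTORC1, which is recruited to the lysosome by Rag GTPases. In steatohepatitis, macrophages that take up lipid and dead cells are rich in lysosomes, while hepatocytes use theirs for autophagy, including that of lipid droplets.

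Total counts per library ranged from 29950509 to 45542335. Levels are given in CPM, counts relative to library totals that were scaled by TMM, a method that balances the bulk of genes between libraries. The TMM factors were 1.02 to 1.15 in diet-fed libraries and 0.753 to 0.824 in Chow libraries. A gene was called when its edgeR quasi-likelihood p was, after Benjamini-Hochberg adjustment across the 18181 genes, under 0.05. All 10 hepatocyte markers checked were detected in every library, with summed levels of 87002 to 107066 CPM in SR9009, 99933 to 107778 CPM in Vehicle and 125700 to 170151 CPM in Chow libraries. The diet-fed libraries fell into a pair of classes by how many of 1752 trace amine, vomeronasal and olfactory receptor genes had any count. SR9009 replicates 2, 4 and 5 and Vehicle replicates 1, 2 and 3 had 150 to 231, the other 4 diet-fed libraries 58 to 76, and Chow libraries 45 to 105.

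The first comparison, Vehicle against Chow, asked how the diet with vehicle injections changed lysosomal genes. Of the 39 members, 28 were higher and 3 lower in Vehicle livers and 8 were not called, where 29.8% of all tested genes were called higher and 25.4% lower. The members were chosen with earlier results of these data known, which limits what this excess can show. The rises were uneven: 15 members rose at least 2-fold, and Atp6v0d2, Cd63, Ctsk, Rragd and Ctss rose between 14.5-fold and 31.6-fold, while Lamp1, the reference marker of the organelle, differed by 1.03-fold and was not called (with raw library totals its log2 fold change was 0.53 in place of 0.05, and it was called higher). The median log2 fold change was 0.55 over the members and 0.02 over all tested genes. In 27 members every Vehicle library was above every Chow library, and in 3 every Vehicle library was below, where 24.7% and 20.7% of all genes separated in these directions. The 39 members took 0.960% to 1.16% of all counts in SR9009 libraries, 0.965% to 1.16% in Vehicle libraries and 0.446% to 0.488% in Chow libraries. In bulk tissue, more cells of a type and more RNA per cell cannot be told apart.

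DESeq2 and limma-voom gave the same counts, 28 higher and 3 lower. With raw library totals in place of TMM the median of all genes moved up by 0.48 on the log2 scale, 36 members were called higher and 1 lower, and of all tested genes 10389 were then higher and 1378 lower, in place of 5414 and 4621. Against that shifted median of all genes, 31 members lay above it.

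**Figure D1:**
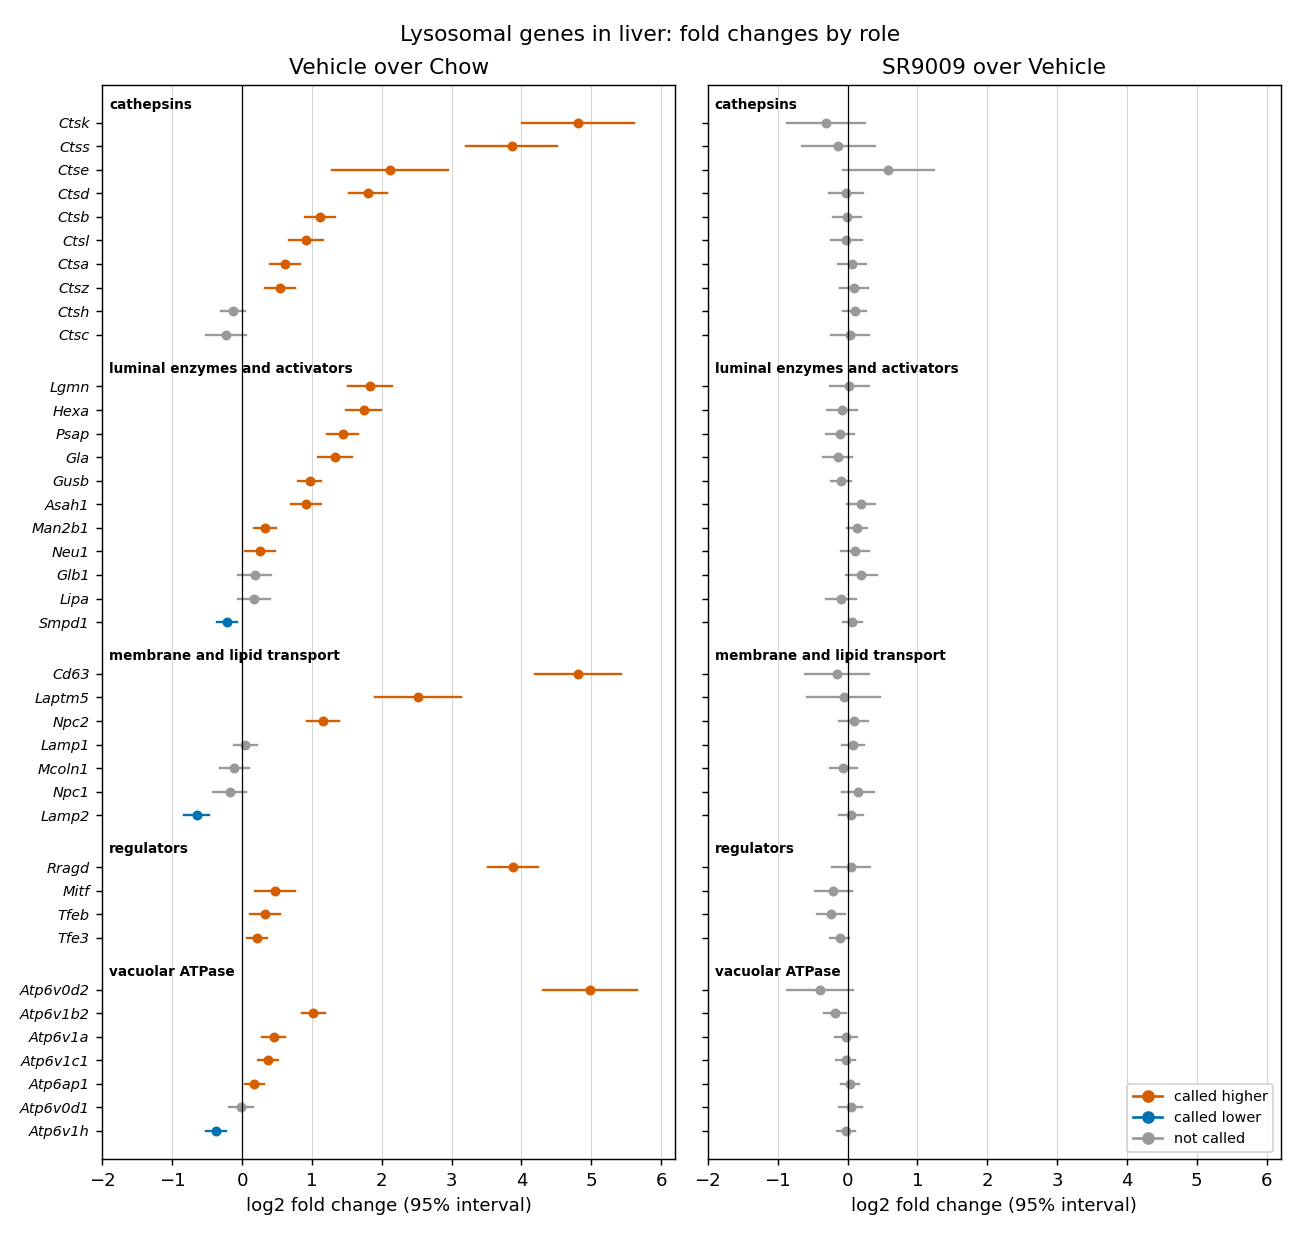
Log2 fold changes of the 39 members, grouped by role, in Vehicle over Chow (left) and SR9009 over Vehicle (right); points are edgeR estimates, bars 95% intervals, and colour the call at an adjusted p of 0.05. At left 28 members are called to the right of 0 and 3 to the left (2 of these 3, Smpd1 and Atp6v1h, turn positive with raw library totals), and at right no member is called.

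Macrophage markers that are not among the lysosomal members moved with these rises. Of 12 macrophage markers, 11 were higher and 1 lower in Vehicle than in Chow. Their summed levels were 1084 to 1538 CPM in SR9009, 1280 to 1975 CPM in Vehicle and 144 to 409 CPM in Chow libraries. Lyz2, which encodes lysozyme, alone averaged 865 CPM in SR9009, 1035 CPM in Vehicle and 72.2 CPM in Chow libraries. The diet-fed sums therefore rested largely on this 1 gene. Of 8 markers of lipid-associated macrophages, 7 were higher and the other was not called, with sums of 1390.2 to 2413 CPM in SR9009, 1754 to 2742 CPM in Vehicle and 107 to 177 CPM in Chow. None of these markers was at 0 over a whole group. Kupffer cell markers, which mark resident macrophages, went both ways, with 2 of 7 higher and 2 lower (Timd4 and Cd163). These Kupffer cell counts lay near the shares of all tested genes, 29.8% higher and 25.4% lower. Of 10 hepatocyte markers 6 were lower in Vehicle and none was higher, though with raw totals 4 were lower and 2 higher. The part of macrophage content in the lysosomal rises was not tested.

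All 4 regulators were called higher in Vehicle than in Chow, but by very different amounts. Rragd (ENSMUSG00000028278.15) encodes RagD, a Rag GTPase that pairs with RagA or RagB and takes part in the control of TFEB and TFE3 by mTORC1. It had 31.2, 30.3, 28.9, 39.6 and 24.7 CPM in the 5 SR9009 libraries, 32.3, 25.1, 29.4, 29.0 and 33.7 CPM in the 5 Vehicle libraries and 2.00, 2.09, 2.55 and 1.40 CPM in the 4 Chow libraries. Every diet-fed library lay far above every Chow library, and the fitted difference was 14.7-fold (log2 fold change 3.88 ± 0.17 SE, edgeR adjusted p = 2.1e-10). No other member of the regulator group came near this.

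Tfeb (ENSMUSG00000023990.19), which encodes the factor best known for driving lysosomal genes, had 9.35, 10.5, 10.1, 11.7 and 9.83 CPM in the 5 SR9009 libraries, 13.3, 12.3, 11.2, 12.5 and 11.2 CPM in the 5 Vehicle libraries and 9.02, 9.48, 9.003 and 10.97 CPM in the 4 Chow libraries. Its level was 1.26-fold higher in Vehicle (log2 fold change 0.33 ± 0.10 SE, edgeR adjusted p = 0.0104), with no overlap between Vehicle and Chow, while SR9009 libraries overlapped with both. Tfe3, its close relative, had 38.6, 40.5, 36.4, 35.0 and 38.0 CPM in the 5 SR9009 libraries, 37.9, 40.4, 41.7, 43.1 and 41.0 CPM in the 5 Vehicle libraries and 31.8, 35.4, 35.5 and 37.9 CPM in the 4 Chow libraries. The Vehicle and Chow ranges nearly touched, with 37.935 CPM in the lowest Vehicle and 37.927 CPM in the highest Chow library, and the difference was 1.16-fold (log2 fold change 0.22 ± 0.07 SE, edgeR adjusted p = 0.0136). Mitf, known from pigment cells, osteoclasts and macrophages, had 9.61, 6.95, 6.97, 9.37 and 8.55 CPM in the 5 SR9009 libraries, 10.5, 9.98, 8.51, 9.62 and 9.18 CPM in the 5 Vehicle libraries and 6.70, 8.48, 6.09 and 6.22 CPM in the 4 Chow libraries. Its lowest Vehicle library was just above its highest Chow library, and it was 1.39-fold higher in Vehicle (log2 fold change 0.47 ± 0.14 SE, edgeR adjusted p = 0.00753). These 3 calls were small and close to the threshold: Tfeb was at an adjusted p of 0.0742 among libraries with few receptor genes, Mitf at 0.0553 there, and Tfe3 at 0.0534 without Chow replicate 1.

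**Figure D2:**
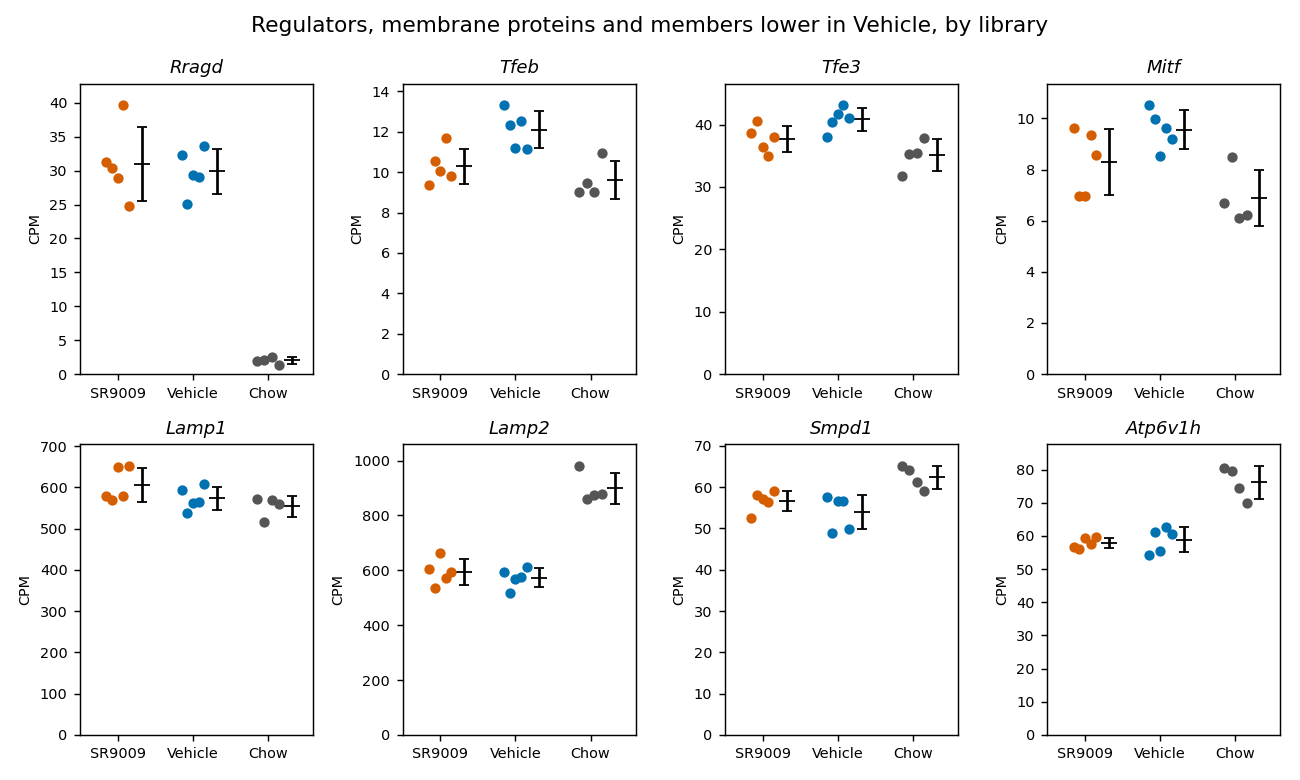
CPM of the 4 regulators, the membrane proteins Lamp1 and Lamp2, and the 2 other members called lower in Vehicle (Smpd1 and Atp6v1h, which turn positive with raw library totals), 1 point per library in SR9009, Vehicle and Chow, with the mean and SD beside the points. Rragd sits at 24.7 CPM or more in all diet-fed and at 2.55 CPM or less in Chow libraries, while Tfeb, Tfe3 and Mitf differ by small steps.

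Because the MiT/TFE factors act through an E-box, promoter windows of the members were searched for the core of their element, TCACGTG (reverse complement CACGTGA), on both strands. Windows ran from 250 bases before to 50 bases after the start of RefSeq transcripts in GRCm38.p6, and 30 of the 39 members had one. The core was present in 9 of these 30 (30.0%): Ctsa, Ctsd, Gla, Glb1, Lgmn, Lamp1, Mcoln1, Atp6v0d1 and Atp6v1a. Over all 27025 genes with a window it was present in 4.29%. The plain E-box CACGTG, which lies within the core and is also bound by clock and other factors, was in 10 of the 30 members and in 8.09% of all genes. The longer palindrome with GT before and AC after CACGTG, which contains the core on both strands, was in 0 of the 30 members and in 0.37% of all genes. A match is a run of letters and does not show binding.

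Windows of 4 members that hold the core more than once are printed here, to set the element beside the expression values. Every TCACGTG or CACGTGA is in capitals. Ctsa, which also held 2 runs of the core, is not printed. The Ctsd window lies on the minus strand of chr7:142387778-142388077, that of Gla on the minus strand of chrX:134600956-134601255, that of Lamp1 on the plus strand of chr8:13158911-13159210 and that of Mcoln1 on the plus strand of chr8:3500269-3500568.
Ctsd: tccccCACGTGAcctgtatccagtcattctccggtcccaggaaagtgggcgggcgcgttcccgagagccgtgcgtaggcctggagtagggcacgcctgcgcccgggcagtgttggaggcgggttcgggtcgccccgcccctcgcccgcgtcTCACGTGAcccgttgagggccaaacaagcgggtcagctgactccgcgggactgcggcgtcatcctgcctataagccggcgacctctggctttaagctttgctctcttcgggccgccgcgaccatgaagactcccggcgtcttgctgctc
Gla: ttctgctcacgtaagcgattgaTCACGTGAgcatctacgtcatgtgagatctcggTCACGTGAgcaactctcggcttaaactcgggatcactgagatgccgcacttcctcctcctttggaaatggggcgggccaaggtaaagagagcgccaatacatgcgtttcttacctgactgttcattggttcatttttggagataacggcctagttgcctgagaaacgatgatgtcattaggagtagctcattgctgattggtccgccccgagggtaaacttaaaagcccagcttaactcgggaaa
Lamp1: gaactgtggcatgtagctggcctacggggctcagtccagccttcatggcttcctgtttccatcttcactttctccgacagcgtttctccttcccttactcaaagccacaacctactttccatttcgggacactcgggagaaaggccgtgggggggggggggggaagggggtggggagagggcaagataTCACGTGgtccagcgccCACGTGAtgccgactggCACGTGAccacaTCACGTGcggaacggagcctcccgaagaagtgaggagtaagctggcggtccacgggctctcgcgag
Mcoln1: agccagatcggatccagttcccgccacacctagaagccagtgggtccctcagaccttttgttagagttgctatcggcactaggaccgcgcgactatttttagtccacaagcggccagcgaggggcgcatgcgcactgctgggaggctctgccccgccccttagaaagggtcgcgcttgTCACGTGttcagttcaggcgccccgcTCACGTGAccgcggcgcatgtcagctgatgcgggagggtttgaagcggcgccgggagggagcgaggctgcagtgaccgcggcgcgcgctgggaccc
In Lamp1 the 4 runs began 62, 45, 28 and 16 bases before the transcript start. Those of Mcoln1 began 72 and 46 bases before it, those of Ctsd 245 and 99 and those of Gla 228 and 195.

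Members with the core ranged from no call to rises of over 3-fold. Lamp1, with 4 runs, averaged 574 ± 28.0 CPM in Vehicle livers and 555 ± 25.4 CPM in Chow livers (SD, n = 5 and 4) and was not called. Ctsd, with 2, rose 3.50-fold in Vehicle. Of the 9 members with the core 5 were higher, 0 lower and 4 not called, with a median log2 fold change of 0.45 and a range of -0.11 to 1.83. Of the 21 members with a window but no core 17 were higher, 2 lower and 2 not called, with a median of 0.55 and a range of -0.65 to 4.81. The difference between these groups of genes was not tested. Rragd, Ctsk, Ctss and Cd63, 4 of the 5 members with the largest rises, had windows without the core. The other of these, Atp6v0d2, had no window, so it could not be searched.

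Cathepsins are the lysosomal proteases, mostly cysteine proteases, with the aspartic proteases CTSD and CTSE and the serine carboxypeptidase CTSA among them. In Vehicle livers 8 of the 10 were higher than in Chow, 0 were lower, and the median log2 fold change was 1.02. Ctsk (ENSMUSG00000028111.5), a collagen-degrading protease best known from osteoclasts, had 12.3, 20.3, 7.90, 19.9 and 11.8 CPM in the 5 SR9009 libraries, 18.6, 25.5, 19.5, 12.3 and 13.6 CPM in the 5 Vehicle libraries and 0.526, 0.372, 0.828 and 0.866 CPM in the 4 Chow libraries. Its lowest diet-fed library was far above its highest Chow library, and it was 28.0-fold higher in Vehicle (log2 fold change 4.81 ± 0.38 SE, edgeR adjusted p = 1.16e-07).

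Ctss (ENSMUSG00000038642.11), the cathepsin of antigen-presenting cells that trims the invariant chain of MHC class II, had 289, 436, 258, 374 and 313 CPM in the 5 SR9009 libraries, 454, 366, 413, 286 and 311 CPM in the 5 Vehicle libraries and 14.5, 19.3, 23.5 and 43.7 CPM in the 4 Chow libraries. Chow replicate 4 was the highest Chow library for Ctss, and it also had the highest summed macrophage markers in Chow, 409 CPM against at most 273 CPM in the other 3. Its summed Kupffer cell markers were highest too, at 429 CPM against at most 217 CPM, as were those of T and NK cells, B cells and neutrophils. Its lipid-associated macrophage markers summed to 108 CPM, against up to 177 CPM in the other 3, and no other cell type was highest in it. The part of cell content in its Ctss level was not tested. The rise of Ctss was 14.5-fold (log2 fold change 3.86 ± 0.30 SE, edgeR adjusted p = 1.33e-07), and 4.26 on the log2 scale without that library. Ctsd (ENSMUSG00000007891.17), the main aspartic protease of most cells, had 437, 547, 479, 564 and 571 CPM in the 5 SR9009 libraries, 619, 531, 586, 427 and 477 CPM in the 5 Vehicle libraries and 170.5, 154, 129 and 150.4 CPM in the 4 Chow libraries. It was 3.50-fold higher in Vehicle (log2 fold change 1.81 ± 0.13 SE, edgeR adjusted p = 1.93e-08), and again no Chow library reached the diet-fed ones.

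Ctsb and Ctsl, cysteine proteases of broad specificity, rose 2.17-fold (log2 fold change 1.12 ± 0.10 SE, edgeR adjusted p = 2.89e-07) and 1.88-fold (log2 fold change 0.91 ± 0.11 SE, edgeR adjusted p = 5.5e-06). Ctsa, whose product also shields beta-galactosidase and neuraminidase, rose 1.54-fold, and Ctsz, a carboxypeptidase, rose 1.46-fold. Ctse, an aspartic protease of immune and gastric cells, rose 4.33-fold (log2 fold change 2.11 ± 0.39 SE, edgeR adjusted p = 0.000258) at low levels, with a mean of 1.15 CPM in Vehicle and 0.272 CPM in Chow. Ctsh, an aminopeptidase, and Ctsc, which activates the serine proteases of granules, were not called, at 0.917-fold and 0.852-fold of Chow. Both turned above Chow with raw library totals, Ctsh by 0.36 and Ctsc by 0.25 on the log2 scale. Ctsh was then called higher (edgeR adjusted p = 0.00033), and Ctsc was not called. Ctsc, in turn, was called lower when Chow replicate 1 was left out (log2 fold change -0.33, edgeR adjusted p = 0.0493).

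**Figure D3:**
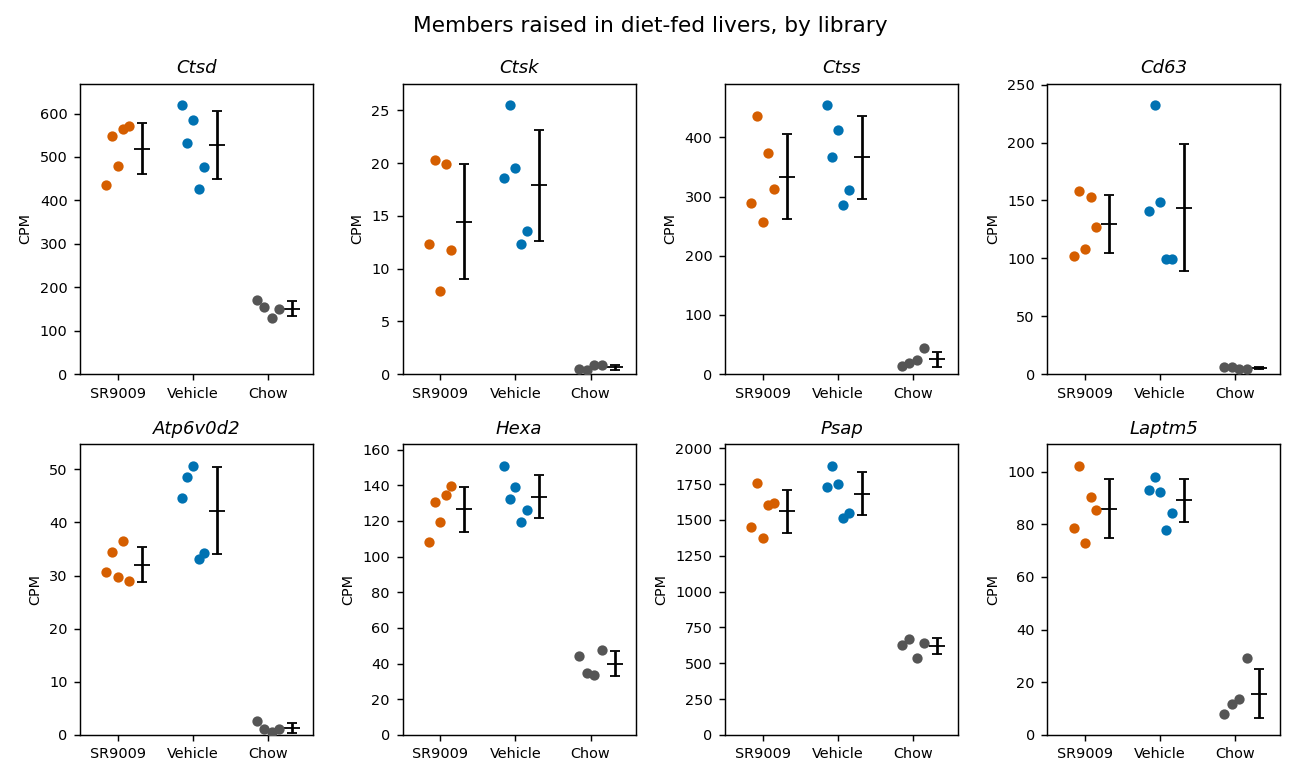
CPM of 8 members called higher in diet-fed livers, 1 point per library in SR9009, Vehicle and Chow, with the mean and SD beside the points. In each panel all 10 diet-fed libraries lie above all 4 Chow libraries, and SR9009 and Vehicle points overlap.

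Among the 11 other luminal enzymes and activators, 8 rose and 1 fell in Vehicle, with a median log2 fold change of 0.91. Psap (ENSMUSG00000004207.16) encodes prosaposin, which is cleaved into the saposins that present sphingolipids to their hydrolases. It had 1448, 1755, 1376, 1607 and 1621 CPM in the 5 SR9009 libraries, 1728, 1877, 1751, 1517 and 1547 CPM in the 5 Vehicle libraries and 631, 672, 536 and 641 CPM in the 4 Chow libraries. No Chow library came within reach of the diet-fed ones, and the difference was 2.72-fold (log2 fold change 1.44 ± 0.11 SE, edgeR adjusted p = 2.91e-08). Hexa (ENSMUSG00000025232.9), the alpha subunit of beta-hexosaminidase, which degrades GM2 ganglioside, had 108, 130.5, 119, 135 and 139.8 CPM in the 5 SR9009 libraries, 151, 132, 139, 119 and 126 CPM in the 5 Vehicle libraries and 44.5, 34.8, 33.4 and 47.3 CPM in the 4 Chow libraries. It rose 3.34-fold (log2 fold change 1.74 ± 0.12 SE, edgeR adjusted p = 1.14e-08).

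Gusb (ENSMUSG00000025534.18), encoding beta-glucuronidase, which works on glycosaminoglycans, had 63.2, 67.8, 60.5, 65.6 and 61.0 CPM in the 5 SR9009 libraries, 65.9, 77.4, 72.4, 61.8 and 61.9 CPM in the 5 Vehicle libraries and 36.5, 34.4, 33.4 and 34.2 CPM in the 4 Chow libraries. Its Chow libraries lay within a narrow band, and the rise was 1.96-fold (log2 fold change 0.97 ± 0.08 SE, edgeR adjusted p = 5.83e-08). Lgmn, an endopeptidase that cuts after asparagine and matures several cathepsins, rose 3.55-fold (log2 fold change 1.83 ± 0.15 SE, edgeR adjusted p = 7.7e-08). Gla, the alpha-galactosidase that removes globotriaosylceramide, rose 2.52-fold and Asah1, acid ceramidase, 1.88-fold. Smaller rises were called for Man2b1, an alpha-mannosidase, at 1.26-fold and for Neu1, a sialidase, at 1.196-fold (edgeR adjusted p = 0.0360). Leaving out 1 library ended the call of Neu1 for 5 of the 14 libraries (Vehicle replicates 1, 4 and 5 and Chow replicates 2 and 3), with adjusted p of up to 0.103.

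The other 3 luminal enzymes were not called higher, although all 11 were with raw library totals. Lipa, the acid lipase that frees cholesterol and fatty acids from lipoproteins and lipid droplets, averaged 369 ± 19.6 CPM in Vehicle livers and 327 ± 61.1 CPM in Chow livers (SD, n = 5 and 4) and was not called. Glb1, beta-galactosidase, was not called either, at 1.13-fold. Smpd1 (ENSMUSG00000037049.10), acid sphingomyelinase, which makes ceramide from sphingomyelin, had 52.5, 58.1, 57.0, 56.5 and 59.0 CPM in the 5 SR9009 libraries, 57.6, 49.0, 56.7, 56.6 and 49.9 CPM in the 5 Vehicle libraries and 65.0, 64.2, 61.3 and 59.1 CPM in the 4 Chow libraries. Every Vehicle library was below every Chow library, and the level was 1.16-fold lower (log2 fold change -0.21 ± 0.07 SE, edgeR adjusted p = 0.0152), but with raw library totals it was 0.27 higher on the log2 scale. Its call was lost without Chow replicate 1, at an adjusted p of 0.0515.

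Of the 7 membrane and lipid-transport proteins, 3 were higher, 1 lower and 3 not called. Over all tested genes 29.8% were called higher and 25.4% lower. The median log2 fold change was 0.05 over these 7 and 0.02 over all tested genes. Cd63 (ENSMUSG00000025351.15), a tetraspanin of late endosomes, lysosomes and exosomes, had 102, 158, 108, 153 and 127 CPM in the 5 SR9009 libraries, 141, 232, 149, 99.1 and 99.0 CPM in the 5 Vehicle libraries and 6.00, 6.01, 4.10 and 4.29 CPM in the 4 Chow libraries. Vehicle replicate 2 was the highest library, and every diet-fed library exceeded 99 CPM where no Chow library exceeded 6.01 CPM. The rise was 28.1-fold (log2 fold change 4.81 ± 0.29 SE, edgeR adjusted p = 1.12e-08). Laptm5 (ENSMUSG00000028581.18), a lysosomal membrane protein of blood-derived cells, had 78.8, 102, 72.9, 90.6 and 85.3 CPM in the 5 SR9009 libraries, 93.2, 98.0, 92.3, 77.8 and 84.2 CPM in the 5 Vehicle libraries and 8.03, 11.8, 13.4 and 29.3 CPM in the 4 Chow libraries. Chow replicate 4 was again the highest Chow library, and the rise was 5.73-fold (log2 fold change 2.52 ± 0.28 SE, edgeR adjusted p = 5.27e-06), or 3.01 on the log2 scale without it.

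Npc2 (ENSMUSG00000021242.10) encodes the soluble protein that hands cholesterol to NPC1 for export. It had 149, 186, 147, 172 and 188 CPM in the 5 SR9009 libraries, 184, 153, 169, 132 and 154 CPM in the 5 Vehicle libraries and 79.0, 64.7, 68.6 and 72.3 CPM in the 4 Chow libraries. It rose 2.23-fold (log2 fold change 1.16 ± 0.11 SE, edgeR adjusted p = 3.4e-07), while its partner Npc1 was not called at 0.884-fold of Chow, a value that turned to 0.29 above Chow on the log2 scale with raw library totals. Mcoln1, the TRPML1 calcium channel, was not called at 0.926-fold. It was 0.36 above Chow with raw totals and 0.04 above it among libraries with few receptor genes. With raw totals both Npc1 and Mcoln1 were called higher (edgeR adjusted p = 0.0461 and 0.00279).

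The 2 major membrane glycoproteins, LAMP1 and LAMP2, parted from each other. Lamp2 (ENSMUSG00000016534.16), needed for the fusion of autophagosomes with lysosomes and, in 1 splice form, for chaperone-mediated autophagy, had 606, 534, 664, 574 and 594 CPM in the 5 SR9009 libraries, 596, 516, 569, 577 and 611 CPM in the 5 Vehicle libraries and 981, 860.1, 876 and 878 CPM in the 4 Chow libraries. All diet-fed libraries were below all Chow libraries, and the level was 1.57-fold lower in Vehicle (log2 fold change -0.65 ± 0.09 SE, edgeR adjusted p = 1.01e-05). Unlike the 2 other members called lower, Lamp2 stayed below Chow with raw library totals, by 0.17 on the log2 scale. Lamp1 had 579, 569, 649.8, 579 and 652 CPM in the 5 SR9009 libraries, 594, 539, 563, 564 and 609 CPM in the 5 Vehicle libraries and 572, 517, 569 and 560.5 CPM in the 4 Chow libraries, and the 3 groups overlapped.

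The vacuolar ATPase is built of a membrane sector, V0, and a cytosolic sector, V1. Of its 7 members, 5 were higher and 1 lower in Vehicle. Atp6v0d2 (ENSMUSG00000028238.7), the form of the V0 subunit d found in osteoclasts and macrophages, had 30.6, 34.5, 29.7, 36.6 and 29.0 CPM in the 5 SR9009 libraries, 44.7, 48.5, 50.6, 33.1 and 34.2 CPM in the 5 Vehicle libraries and 2.67, 1.09, 0.497 and 1.11 CPM in the 4 Chow libraries. Its fitted fold change of 31.6 in Vehicle over Chow was the highest of the 39 members (log2 fold change 4.98 ± 0.32 SE, edgeR adjusted p = 1.92e-08). Chow replicate 1 was its highest Chow library, and without it the log2 fold change was 5.56. Atp6v0d1, the form of the same subunit found in most cells, averaged 88.9 ± 4.71 CPM in Vehicle livers and 89.8 ± 8.75 CPM in Chow livers (SD, n = 5 and 4). This difference of -0.01 on the log2 scale was not called, and its sign changed with several settings. With raw library totals Atp6v0d1 was 0.46 above Chow on the log2 scale and was called higher (edgeR adjusted p = 7.2e-05).

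Atp6v1b2 (ENSMUSG00000006273.15), a V1 subunit that binds nucleotide, had 101, 114, 101, 105 and 108 CPM in the 5 SR9009 libraries, 112, 137, 126, 108 and 114 CPM in the 5 Vehicle libraries and 59.4, 57.6, 55.05 and 63.4 CPM in the 4 Chow libraries. It rose 2.03-fold (log2 fold change 1.02 ± 0.08 SE, edgeR adjusted p = 5.06e-08). Atp6v1a, the catalytic subunit, rose 1.37-fold and Atp6v1c1, which holds the sectors together, 1.29-fold. Atp6ap1, an accessory protein of pump assembly, rose 1.13-fold (edgeR adjusted p = 0.0326), a call that ended without any 1 of Vehicle replicates 1 and 2 and Chow replicates 3 and 4. Atp6v1h (ENSMUSG00000033793.13), a regulatory V1 subunit, had 56.6, 56.1, 59.5, 57.5 and 59.6 CPM in the 5 SR9009 libraries, 54.3, 61.2, 55.6, 62.8 and 60.7 CPM in the 5 Vehicle libraries and 80.6, 79.7, 74.4 and 70.0 CPM in the 4 Chow libraries. It was 1.29-fold lower in Vehicle with no overlap (log2 fold change -0.37 ± 0.07 SE, edgeR adjusted p = 0.000156), but with raw library totals it was 0.11 above Chow on the log2 scale.

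**Figure D4:**
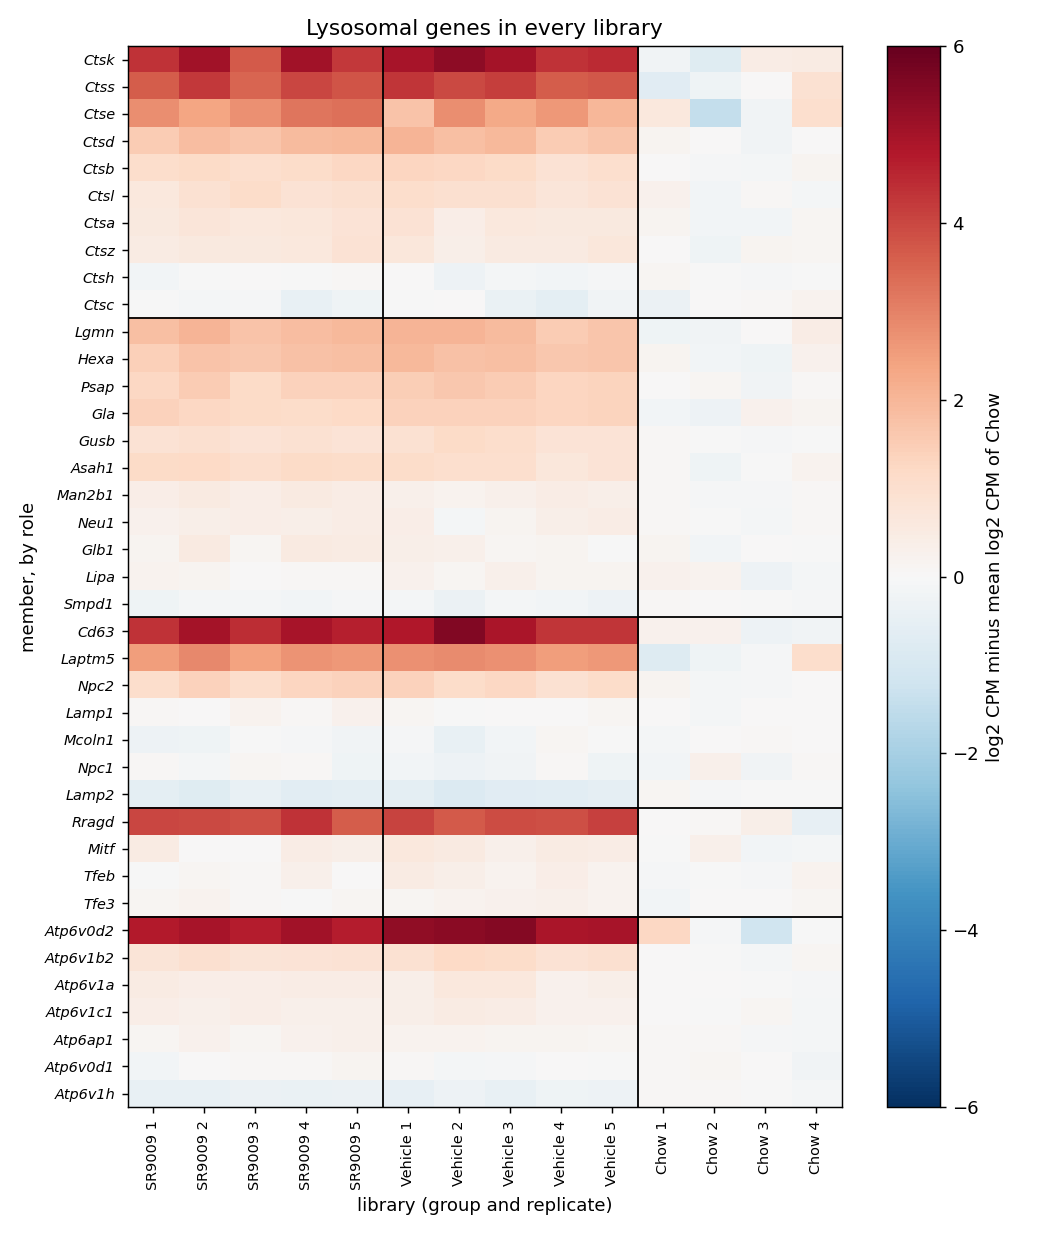
Log2 CPM of each member in each library minus the mean log2 CPM of the Chow libraries, with members in rows by role and libraries of SR9009, Vehicle and Chow in columns. The rows of Ctsk, Ctss, Cd63, Rragd and Atp6v0d2 are dark in all 10 diet-fed libraries, and in no row do all SR9009 libraries lie above or below all Vehicle libraries.

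Levels per length put the changes in proportion. Mean CPM was divided by the length in kb of the principal transcript. Psap was the highest member in both diet-fed groups, at 588 CPM per kb in SR9009 and 634 CPM per kb in Vehicle, and at rank 3 in Chow with 233 CPM per kb. Lamp2 and Lamp1 held ranks 1 and 2 in Chow, at 249.3 and 248.8 CPM per kb, levels that do not differ beyond their spread. Ctss was at 246 CPM per kb (rank 5) in SR9009, 270.2 CPM per kb (rank 4) in Vehicle and 18.6 CPM per kb (rank 25) in Chow. Cd63 was at rank 10 in both diet-fed groups and at rank 32 in Chow. Ctsk, Rragd and Atp6v0d2, in spite of their fold changes, were at rank 31 or below in every group. For the d subunit of V0, Atp6v0d2 was at 12.6 CPM per kb in SR9009, 16.6 in Vehicle and 0.528 in Chow, beside Atp6v0d1 at 56.4 CPM per kb in SR9009, 54.6 in Vehicle and 55.1 in Chow.

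**Figure D5:**
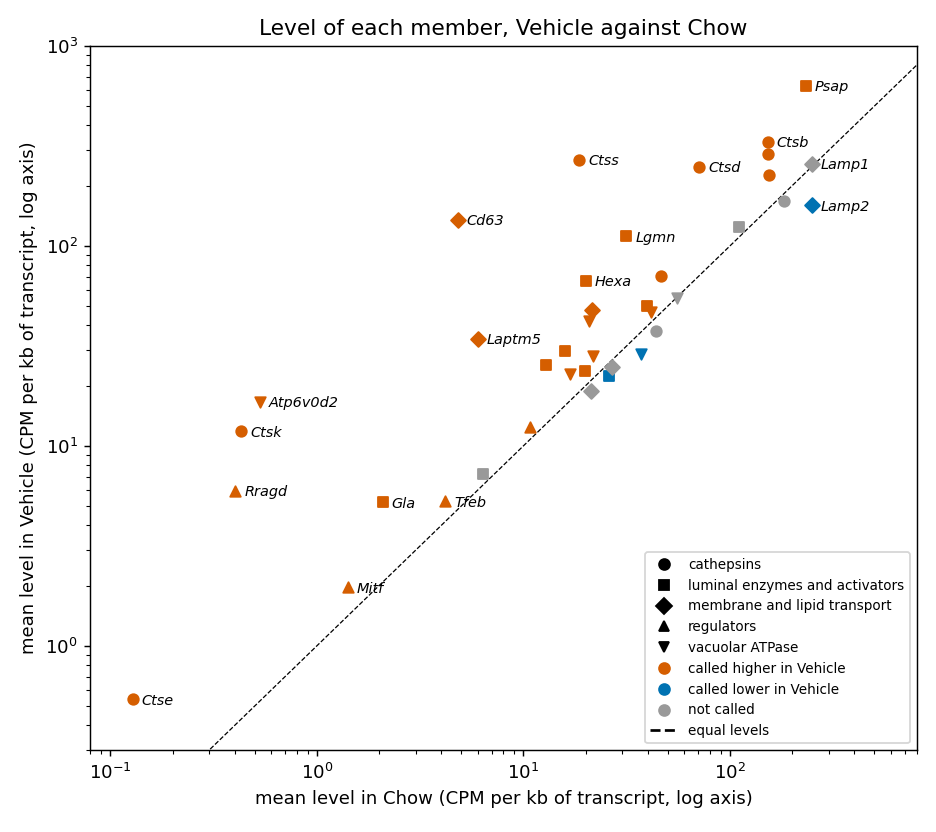
Mean level of each member in Vehicle (vertical) against Chow (horizontal), in CPM per kb of transcript on log axes, with marker shape for role, colour for the call and a dashed line at equal levels. Psap is highest in Vehicle, Ctss and Cd63 lie far above the line, and Lamp2 lies below it.

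Other genes of the pathway were looked up in lists. Of 44 other lysosomal genes, 21 were higher and 8 lower in Vehicle than in Chow, with a median log2 fold change of 0.19. With raw totals 38 were higher and 0 lower. Cd68, a glycoprotein of macrophage lysosomes, rose 12.3-fold (log2 fold change 3.63 ± 0.22 SE, edgeR adjusted p = 1.09e-08). Tpcn2, a cation channel of the lysosomal membrane, rose 3.40-fold and Ppt1, which removes palmitate from proteins, 1.70-fold.

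Of 13 other vacuolar ATPase subunits 11 were tested, and 6 of these were higher and 1 lower in Vehicle, against 10 higher and 0 lower with raw totals. Tcirg1, the V0 subunit a form known from osteoclasts, rose 1.97-fold (log2 fold change 0.98 ± 0.13 SE, edgeR adjusted p = 9.37e-06). Atp6v0e rose 1.62-fold, Atp6ap2 1.38-fold and Atp6v1e1 1.28-fold. The lower subunit, named after its value was seen, was Atp6v0a2, which was 0.20 above Chow on the log2 scale with raw totals. Among 15 genes that dock mTORC1 at the lysosome, 4 were higher and 3 lower, and with raw totals 14 were higher and 0 lower. With TMM these counts lay near the shares of all tested genes, 29.8% higher and 25.4% lower. The median log2 fold change was 0.007 over this list and 0.02 over all tested genes. The genes named next from that list were chosen after their values were seen. Rragc, which encodes the closest relative of RagD, rose 1.38-fold (log2 fold change 0.46 ± 0.08 SE, edgeR adjusted p = 9.08e-05). Lamtor3, a subunit of the Ragulator complex that anchors the Rag GTPases, rose 1.40-fold, while Lamtor2, of the same complex, was 1.21-fold lower but 0.20 above Chow on the log2 scale with raw totals. Rptor, the mTORC1 subunit that binds the Rag GTPases, was 1.41-fold lower (log2 fold change -0.50 ± 0.08 SE, edgeR adjusted p = 4.36e-05), a difference that shrank to -0.02 on the log2 scale with raw totals.

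Of 10 cystatins and other inhibitors 6 were tested, of which 4 were higher and 2 lower in Vehicle, and with raw totals 4 were higher and 0 lower. Cstb, an inhibitor of cathepsins inside cells, rose 3.02-fold (log2 fold change 1.60 ± 0.09 SE, edgeR adjusted p = 1.58e-09), and Cst3, a secreted inhibitor, 1.70-fold. Serpinb6a, a serpin, rose 4.57-fold. Cst7, an inhibitor made by immune cells, stood at 0.106 to 0.648 CPM in SR9009, 0.425 to 0.684 CPM in Vehicle and 0 to 0.0824 CPM in Chow libraries, too low in Chow for a fold. The 2 lower genes, named after their values were seen, were Kng1 and Kng2, the kininogens of plasma, whose log2 fold changes became -0.03 and 0.17 with raw totals.

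Of 17 autophagy genes, 1 was higher and 8 were lower in Vehicle, with a median log2 fold change of -0.18. Of all tested genes 29.8% were called higher and 25.4% lower. With raw totals 10 autophagy genes were higher, 0 lower and the median was 0.30. Of the 18181 tested genes 10389 were then higher and 1378 lower, with a median of 0.50. The 10 higher thus lay near the share of all tested genes. Sqstm1, the cargo receptor p62, which is also induced by oxidative stress, rose 1.59-fold (log2 fold change 0.67 ± 0.10 SE, edgeR adjusted p = 2.86e-05). Atg5, needed to lipidate LC3, was 1.44-fold lower (log2 fold change -0.53 ± 0.07 SE, edgeR adjusted p = 1.19e-05), with -0.05 on the log2 scale under raw totals. Gabarapl2 and Nbr1 were 1.37-fold and 1.33-fold lower, and both were slightly above Chow with raw totals (0.03 and 0.07 on the log2 scale).

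Ctsk, Atp6v0d2 and Tcirg1 are known from osteoclasts, so markers of that cell type were read as well. Acp5 was not called (log2 fold change -0.19 in Vehicle against Chow, turning positive with raw totals). Calcr, the calcitonin receptor, had 0 to 4 counts in SR9009, 0 to 9 in Vehicle and 2 to 4 in Chow libraries, and Oscar had 0 to 6 in SR9009, 0 to 5 in Vehicle and 0 to 1 in Chow libraries. Dcstamp and Nfatc1 were called higher, at 3.02-fold and 1.35-fold, and Ocstamp was not called. With raw totals all 4 tested osteoclast markers were called higher. Among other cell types, markers called higher in Vehicle than in Chow were 6 of 7 for stellate cells and fibroblasts, 5 of 5 for cholangiocytes, 5 of 6 for T and NK cells, 2 of 4 tested for neutrophils, 1 of 5 for mesothelium, 1 of 5 for endothelium and 0 of 4 for B cells. Markers called lower were 1 of 5 for endothelium and 1 of 5 for red cells. With raw totals the counts became 4 higher and 0 lower for endothelium, 3 higher for mesothelium, 3 higher for neutrophils and 1 higher for B cells. They were the same for stellate cells and fibroblasts, cholangiocytes, T and NK cells and red cells. Of all tested genes 29.8% were called higher and 25.4% lower, and 1 of 5 lies near these shares. With raw totals 10389 of 18181 tested genes were higher and 1378 lower. The raw counts higher for mesothelium and B cells lay near or below that share. Of 3 adipocyte markers none passed the filter, and Lep had no count in any library.

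Within the diet-fed arms the members also varied with the receptor gene class. In both arms, 8 members were higher in every library with many receptor genes than in every library with few, and 0 were lower, where 8.18% and 5.13% of all genes separated in these directions. They were Ctsb, Ctsd, Ctss, Hexa, Psap, Lgmn, Cd63 and Laptm5, all of them members that had risen in Vehicle against Chow. Cd63 was at 127 to 158 CPM in SR9009 libraries with many receptor genes and 102 to 108 CPM in those with few. In Vehicle it was at 141 to 232 CPM with many and 99.0 to 99.1 CPM with few. Summed macrophage markers were 1334 to 1538 CPM with many and 1084 to 1192 CPM with few in SR9009, and 1280 to 1975 CPM with many and 1280 to 1361 CPM with few in Vehicle, where they overlapped. Summed lipid-associated macrophage markers were 1751 to 2413 CPM with many and 1390.2 to 1779 CPM with few in SR9009, where they overlapped. In Vehicle they were 2287 to 2742 CPM with many and 1754 to 1807 CPM with few, with no overlap. Taken singly, Trem2, Cd9, Spp1 and Fabp5 were higher in every library with many receptor genes than in every library with few, in both arms. The lipid-associated macrophage markers Gpnmb, Mmp12, Lpl and Clec7a overlapped between the classes in SR9009. Summed hepatocyte markers overlapped between the classes in both arms. Separation by class was not particular to macrophage markers. The cholangiocyte markers Krt19, Krt7 and Epcam were higher in every library with many receptor genes than in every library with few, in both arms. The cholangiocyte markers Sox9 and Cftr overlapped in SR9009. Among libraries with few receptor genes 25 members were called higher and 2 lower in Vehicle than in Chow, and with many 27 and 3. Of the 18181 tested genes 4423 were higher and 3347 lower with few, and 5603 and 4666 with many. The class was defined from these data after they were seen, and its source was not tested.

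The comparison of SR9009 with Vehicle asked whether 6 weeks of the REV-ERB agonist changed the lysosomal genes of diet-fed livers. No member was called in either direction by edgeR, and none by DESeq2 or limma-voom. Few genes were called at all, 0.165% higher and 0.0770% lower over the whole table, so that a count of 0 among 39 lies near the background. At an unadjusted p under 0.05 there were 0 members higher and 2 lower, Tfeb and Atp6v1b2. The share of all tested genes under this unadjusted threshold is not given here, so such counts have no background beside them. In no member did the 5 SR9009 libraries lie wholly above or below the 5 Vehicle libraries, where 0.891% of all genes separated upward and 0.979% downward. The median log2 fold change was -0.02 over the members and 0.0011 over all tested genes.

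The intervals show how large a difference these libraries could have hidden. For 34 of the 39 members the 95% interval of the fold lay within 1.5-fold in both directions, and for 38 within 2-fold. For the leading members the rises in Vehicle over Chow were much larger than these bounds. Cd63 was at 0.901-fold of Vehicle with an interval of 0.654 to 1.24, Rragd at 1.04-fold with 0.858 to 1.25, and Ctsd at 0.984-fold with 0.831 to 1.16. Ctss was at 0.912-fold with an interval of 0.635 to 1.31, and Lamp2 at 1.04-fold with 0.920 to 1.17.

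Tfeb had the smallest p, at 0.850-fold of Vehicle (log2 fold change -0.23 ± 0.09 SE, edgeR adjusted p = 0.549). Its SR9009 libraries spanned 9.35 to 11.7 CPM and its Vehicle libraries 11.2 to 13.3 CPM, and 1 SR9009 library lay within the Vehicle range. Atp6v1b2 was at 0.884-fold (edgeR adjusted p = 0.572), with 101 to 114 CPM in SR9009 and 108 to 137 CPM in Vehicle. Asah1 had 96.9, 98.9, 86.6, 95.3 and 94.9 CPM in the 5 SR9009 libraries, 93.0, 86.4, 88.6, 69.2 and 76.0 CPM in the 5 Vehicle libraries and 46.0, 36.6, 42.4 and 50.7 CPM in the 4 Chow libraries. It was at 1.14-fold in SR9009 against Vehicle (edgeR adjusted p = 0.698), with the 2 groups overlapping.

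The lowest and the highest fold belonged to Atp6v0d2 and Ctse, which were both higher in Vehicle than in Chow. Atp6v0d2 was at 0.760-fold in SR9009 (interval 0.546 to 1.06, edgeR adjusted p = 0.778). Its 5 SR9009 libraries lay between 29.0 and 36.6 CPM, a range that holds the 2 lower Vehicle libraries, while the other 3 Vehicle libraries stood at 44.7 to 50.6 CPM. These 3 are the Vehicle libraries with many receptor genes. Ctse had 1.59, 1.196, 1.51, 2.09 and 2.23 CPM in SR9009 and 0.753, 1.58, 1.12, 1.38 and 0.918 CPM in Vehicle libraries. It was at 1.5-fold (interval 0.958 to 2.35, edgeR adjusted p = 0.740).

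Of the lists read beside the members, none held a call in SR9009 against Vehicle by edgeR. Among the 44 other lysosomal genes 7 were higher and 0 lower at an unadjusted p under 0.05, DESeq2 called 1 higher and limma-voom 0. That 1 gene was Acp2, a lysosomal acid phosphatase, at 1.19-fold (edgeR adjusted p = 0.160). Unadjusted counts were 1 higher among the other vacuolar ATPase subunits, 1 higher among the inhibitors, 2 lower among autophagy genes and 0 among mTORC1 docking genes, with 0 calls by DESeq2 and by limma-voom in each. Of the 8 lipid-associated macrophage markers, edgeR called 0 and DESeq2 and limma-voom 1 lower, and 3 were lower at an unadjusted p under 0.05. The 12 macrophage markers had 0 calls by all 3 tools and 0 at an unadjusted p under 0.05. Of mesothelial markers 3 of 5, and of cholangiocyte markers 1 of 5, were higher at an unadjusted p under 0.05, again with 0 calls by any of the 3 tools. None of the unadjusted counts of these lists has the share of all tested genes beside it.

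SR9009 livers were then set against Chow, which shares its Chow libraries with the first comparison. Of the 39 members 26 were higher and 2 lower, where 30.5% of all genes were called higher and 25.7% lower. With raw library totals 36 members were higher and 0 lower. Of the 18181 tested genes 9964 were then higher and 1577 lower, in place of 5548 and 4665. The call was the same as in Vehicle for 34 members, of which 25 were higher and 2, Lamp2 and Atp6v1h, lower in both arms. In SR9009 both of these lower calls ended with raw totals, where Atp6v1h turned above Chow. In SR9009 Rragd was 15.3-fold over Chow beside 14.7-fold in Vehicle. Ctsk was 22.6-fold over Chow in SR9009 beside 28.0-fold in Vehicle, and Psap 2.52-fold beside 2.72-fold.

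For 5 members the calls differed between the arms. Glb1 was called higher in SR9009 (1.297-fold, edgeR adjusted p = 0.0100) and not in Vehicle (1.13-fold, adjusted p = 0.190). Its call in SR9009 ended with the receptor gene class as a term (edgeR adjusted p = 0.123) and among libraries with few receptor genes (0.331). In Vehicle it was called higher among libraries with many receptor genes (edgeR adjusted p = 0.0364) and with raw totals (log2 fold change 0.67). Smpd1 was not called in SR9009 (0.907-fold, edgeR adjusted p = 0.0908) and lower in Vehicle, and in both arms it turned above Chow with raw totals. The 3 MiT/TFE factors were not called in SR9009, with Tfeb at 1.07-fold, Tfe3 at 1.07-fold and Mitf at 1.205-fold of Chow, beside 1.26-fold, 1.16-fold and 1.39-fold in Vehicle. With raw totals all 3 were called higher in SR9009 as well, with log2 fold changes of 0.55 for Tfeb, 0.55 for Tfe3 and 0.72 for Mitf. The direct test between the arms, SR9009 against Vehicle, called none of the 5 (edgeR adjusted p = 0.764 for Glb1, 0.911 for Smpd1, 0.549 for Tfeb, 0.777 for Tfe3 and 0.809 for Mitf). Without Chow replicate 2, Mitf was called higher in SR9009 as well, at an adjusted p of 0.0293.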

How the data were processed

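The authors deposited unnormalized counts for each library by Ensembl gene. The submitters' processing notes name STAR 2.7.11b and GRCm39; which tool, annotation and strand setting produced the counts is not given in the sources that were used, so overlapping and antisense genes are uncertain. Of 15 samples described, Chow replicate 5 was not analysed here. Symbols matched 51880 of 57132 identifiers (90.8%). Genes were, with edgeR 4.0.16 (R 4.3.3), filtered by filterByExpr (minimum count 10, minimum total 15; 99.9% of counts kept), scaled by TMM and tested in 1 robust quasi-likelihood fit over the 3 groups, adjusted by Benjamini-Hochberg. Standard errors are those that give the F statistic. The common coefficient of biological variation was 0.211. Alternatives were DESeq2 1.42.0, limma 3.58.1 voom with quality weights, other scalings, other filters, a fit to only the compared groups, a replicate block, the receptor gene class and leaving out each library.

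The members and all lists were chosen with earlier results of these data known. The members given in full are the regulators, the 3 smallest adjusted p of each role group in Vehicle versus Chow, every member lower there, and the 3 smallest p in SR9009 versus Vehicle; each list names up to 4 genes with the smallest adjusted p, of which 1 is not reported here. Transcript lengths are medians of principal transcripts in GENCODE M21 (GRCm38), and promoters are from RefSeq. No pair of libraries within a group (26 pairs) came near sampling noise, the smallest mean chi-square being 15.9 per gene, and all were kept as separate samples. The labels do not say outright that each library came from its own mouse, so p-values measure only the spread between these libraries, which may be partly technical.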

Additional observations from a re-analysis of the deposited data

Results flagged for a closer look

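Lamp2 stood out in 1 Chow library. Chow replicate 1 was at 980.8 CPM, while the other 3 Chow libraries lay between 860.1 and 877.6 CPM, so that its gap to the nearest was 0.855 of the whole range of the group. This was 1 of 117 groups of libraries examined (39 members in 3 groups), and chance alone would single out about 1 in 20. Without that library the log2 fold change of Lamp2 in Vehicle versus Chow was -0.60, beside -0.65 with it.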

How the results depend on the processing

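Counts of members called higher or lower kept within 1.5 times of the reported ones under every alternative run, with exceptions under raw library totals: there 1 member in place of 3 was called lower in Vehicle versus Chow, and 0 in place of 2 in SR9009 versus Chow. Leaving out each library gave 26 to 28 members higher and 3 lower in Vehicle versus Chow, 0 in either direction in SR9009 versus Vehicle, and 26 to 27 higher and 2 lower in SR9009 versus Chow.

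With raw totals, log2 fold changes in Vehicle versus Chow that changed sign became 0.25 for Ctsc, 0.36 for Ctsh, 0.27 for Smpd1, 0.295 for Npc1, 0.36 for Mcoln1, 0.46 for Atp6v0d1 and 0.11 for Atp6v1h, and 6 members changed sign in SR9009 versus Chow, among them Smpd1 at 0.31; by construction this setting adds the shift of the median of all genes. Ctsh, Smpd1, Npc1, Mcoln1 and Atp6v0d1 were called higher in Vehicle versus Chow with raw totals. Among libraries with few receptor genes Mcoln1 became 0.0431 and Atp6v0d1 0.013. Atp6v0d1, whose reported value is -0.01, was 0.0073 without a low-count filter, 0.0047 with at least 1 CPM in at least 4 libraries, 0.0063 with only the 2 groups compared, and -0.0729 to 0.0353 when each library was left out; the cause was not tested. With the receptor gene class as a term the counts were 26 higher and 3 lower in Vehicle versus Chow and 24 and 2 in SR9009 versus Chow. Of the 18181 tested genes 4745 were then higher and 3889 lower in Vehicle versus Chow, and 4904 and 3927 in SR9009 versus Chow.

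Nothing in the labels says that same-numbered libraries share an animal or a day, and their numbers did not pair SR9009 with Vehicle libraries: the deviations of same-numbered libraries correlated at -0.36 to 0.20, and 0 of 5 SR9009 libraries correlated best with their own number. With the replicate number as a block 26 members were higher and 2 lower in Vehicle versus Chow. Of the 18181 tested genes 5095 were then higher and 4254 lower. The edgeR adjusted p values with this block were 0.0910 for Neu1, 0.0536 for Smpd1 and 0.0662 for Atp6ap1.

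Depth limited the lowest member: 3 counts correspond to 0.0659 to 0.100 CPM on raw totals, and Ctse, at 0.0859 CPM in 1 Chow library, lay near that level. These figures cover counting error only.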
